A study of Mus musculus with 6 samples.

Results

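Genes for the lysosome's proteases and its proton pump were compared between left ventricles of mice given 2-methyl-2-thiazoline (2MT), a small thiazoline compound, and left ventricles of saline mice. Members were all probe sets with a single gene symbol that begins with Atp6v0 or Atp6v1 or reads Cts followed by 1 letter, together with Lamp1, Lamp2, Mcoln1, Tfeb, Tfe3 and Mitf. The rule found 48 probe sets of 21789 with 1 symbol, which stand for 44 of 19938 genes: 8 subunits of the membrane part of the pump (V0), 13 of its ATP-splitting part (V1), 17 cathepsins, 3 lysosomal membrane proteins and 3 transcription factors. Each group had 3 arrays from 10-week-old male C57BL/6 mice. Per the protocols, mice received a subcutaneous dose of 50 mg/kg 2MT and hearts were removed after 4 h. That text stands for all 6 samples and describes no saline injection, so the groups rest on the treatment labels. The labels do not say that each array is a separate animal, so the replicate error behind each p-value may be technical. The study asked how 2MT may protect the heart.

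Lysosomes are acidic compartments in which proteins, lipids and sugars are broken down. The V-ATPase acidifies them: its V1 part splits ATP outside the membrane and turns a rotor in the V0 part, which carries protons inward. Cathepsins are the resident proteases, most of them cysteine proteases that work in acid. TFEB, TFE3 and MITF are related transcription factors that bind short E-box motifs in promoters of lysosomal genes. They are held in the cytoplasm when mTORC1 is active on the lysosomal surface and enter the nucleus in starvation or lysosomal stress. In long-lived heart muscle cells this pathway serves the clearance of worn organelles through autophagy.

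A motif of the kind these factors bind is the one sequence feature of the members shown here. The letters TCACGTGA, which read the same on both strands and contain the E-box CACGTG, were searched in RefSeq promoter windows of 300 bases (250 before the transcript start and 50 after it, build GRCm38.p6). Of the 44 member genes, 34 were in that table, and 6 of them (17.6%) held TCACGTGA, against 1.12% of all 27025 genes with a window. CACGTG alone lay in 10 of the 34 (29.4%), against 8.09% of all genes. The stretches around 4 motifs that lie wholly before the start are printed with the motif in capitals, 5′ to 3′ on the strand of the gene. The first is Mcoln1, the lysosomal calcium channel, on the + strand at chr8:3500437-3500516, with the motif starting 46 bases before the start. The others are Ctsd, on the - strand at chr7:142387883-142387962 (99 bases before), Ctsa, on the + strand at chr2:164833724-164833772 (13 bases before), and Atp6v1a, on the - strand at chr16:44139348-44139427 (132 bases before).
Mcoln1: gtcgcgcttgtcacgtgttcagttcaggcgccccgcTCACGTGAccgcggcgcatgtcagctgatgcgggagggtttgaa
Ctsd: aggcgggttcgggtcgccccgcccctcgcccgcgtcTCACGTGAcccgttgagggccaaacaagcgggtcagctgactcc
Ctsa: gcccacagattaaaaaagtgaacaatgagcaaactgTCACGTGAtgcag
Atp6v1a: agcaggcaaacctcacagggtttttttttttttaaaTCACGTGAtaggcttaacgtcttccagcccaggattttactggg
In Atp6v0d1 and Atp6v0e the motif lies at or after the start, and Ctsa has a further listed match that lies after a start. The windows of Tfe3 and Atp6v1g2, the members that changed, do not hold these letters. A match is a description of the letters and not evidence of binding.

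Values are log2 array signals as deposited. They compare a gene between groups and not one gene with another. A floor of 4.345, the median of the probe sets' means, set genes with a lower mean over the 6 arrays aside as dim, which left 32 of the 44 member genes for testing among 10547 genes. The words rose and fell are kept for genes past an adjusted p of 0.05 in limma. The 11 cardiomyocyte markers had means of 11.19 to 13.13 and 0 of them passed (0 also at an unadjusted p under 0.05), while all 12 neutrophil, 8 mast cell and 6 osteoclast markers were dim. Of 7 endothelial markers 1 fell and 0 rose (3 at an unadjusted p under 0.05), with a median of 0.09 and 5 of the 7 standing higher in 2MT. The one called was Pecam1, which fell by 0.33 ± 0.07 (SE, adjusted p = 0.02, passing in 11 of 17 alternatives). Of 8 fibroblast markers 0 passed (1 at an unadjusted p under 0.05). Over all genes tested 4.63% passed in limma, and 17.8% had an unadjusted p under 0.05. The array saline 3 held more erythrocyte signal than the others, with a summed linear signal over 3 markers of 260, against 129 to 154 on the 2MT arrays and 130 to 137 on the other saline arrays. Tissue arrays cannot tell fewer cells of a type from less RNA per cell.

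At 4 h after 2MT, Tfe3 fell and Atp6v1g2, a G subunit of the pump's V1 part, rose, and the other tested members did not pass. Of 32 tested members 2 were called, 1 lower and 1 higher. That is 6.25% of members, against 4.63% of all genes tested (2.41% lower and 2.22% higher), so the share of called members lies near the background. The median difference of the 32 was -0.02 on the log2 scale, against 0.00 over all genes tested, and their median size was 0.09, as it was over all genes. The 95% interval of the difference stayed within 1.2-fold either way for 17 of the 32 members, against 43.7% of all genes, and within 1.5-fold for all 32, against 96.5%. At an unadjusted p under 0.05 there were 7 members of 32, against 17.8% of all genes. Groups did not overlap in 8 members (25%), against 21.1% of all genes. In 3 of these members 2MT was higher, against 11.1% of all genes, and in 5 it was lower, against 10.1%. The plot of differences shows this spread by role.

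**Figure D1:**
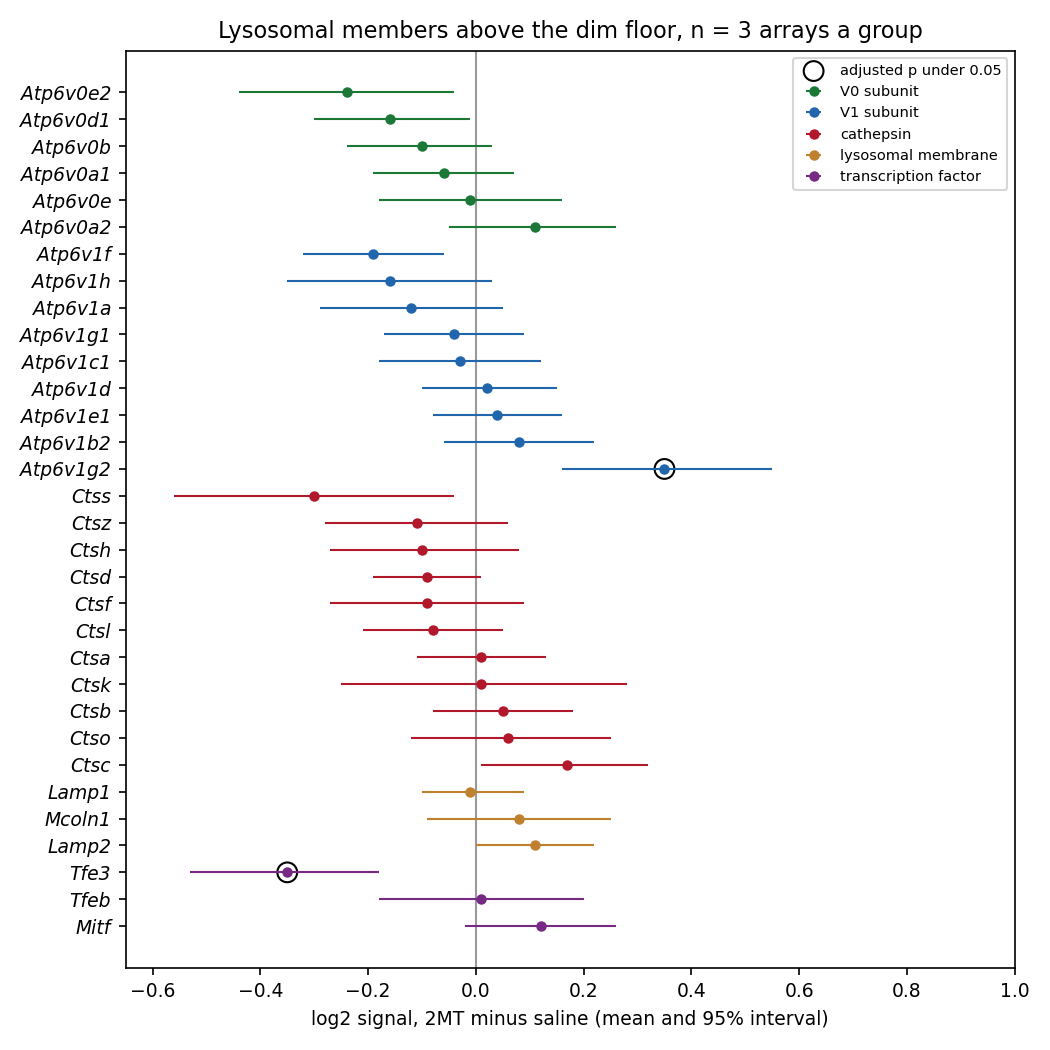
Difference in log2 signal, 2MT minus saline, for the 32 tested members on the horizontal axis, with 95% intervals from limma (3 arrays a group), coloured by role. Circles mark Atp6v1g2 at 0.35 and Tfe3 at -0.35, and all intervals lie between -0.56 and 0.55.

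Among the transcription factors Tfe3 fell while its relatives did not pass. Tfe3 (probe set 10598409) had log2 signals of 5.38, 5.37 and 5.48 in 2MT hearts, against 5.82, 5.72 and 5.75 in saline hearts. Every 2MT array lay under every saline array. It fell by 0.35 ± 0.08 (SE, n = 3 each, limma adjusted p = 0.025), a 1.28-fold lower level with a 95% interval of 0.69 to 0.89 for the ratio of 2MT to saline. The call was lost without 2MT 1 (adjusted p = 0.081), 2MT 2 (0.10), 2MT 3 (0.056) or saline 1 (0.098), and its log2 difference ran from -0.39 to -0.26 over 16 alternatives. In the RefSeq table the span of Tfe3 overlaps the gene model Gm39487.

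Tfeb, the factor for which the lysosomal gene program was first described, had signals of 6.06, 5.97 and 6.00 in 2MT hearts, against 6.09, 6.09 and 5.83 in saline hearts. The groups overlapped, and the difference of 0.01 had a 95% interval of -0.18 to 0.20 (adjusted p = 0.98). Mitf, known in mice for pigment cells and osteoclasts and also expressed in heart, had 7.67, 7.72 and 7.69 in 2MT hearts, against 7.51, 7.69 and 7.51 in saline hearts. Only saline 2 reached the 2MT range, and the difference of 0.12 ± 0.07 (SE) did not pass (adjusted p = 0.35). Its other probe set was dim, at 1.68 in both groups. Within arrays, the log2 signal of Tfe3 minus that of Tfeb differed by -0.36 ± 0.10 between 2MT and saline, and that of Tfe3 minus Mitf by -0.48 ± 0.09 (SE, n = 3 each). Both gave an exact permutation p of 0.1 (0.175 adjusted over the 7 pairs of related genes compared). The smallest p that 3 against 3 arrays allow is 0.1, so no pair could pass 0.05. These values largely restate the separate differences of -0.35 for Tfe3, 0.01 for Tfeb and 0.12 for Mitf.

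The lysosomal membrane proteins showed small differences. Of the 3, 0 passed in limma, against 4.63% of all genes tested (0 also at an unadjusted p under 0.05, against 17.8%). Lamp2, a heavily glycosylated membrane protein whose loss in humans causes a heart muscle disease, had 9.14, 9.26 and 9.15 in 2MT hearts, against 9.08, 9.07 and 9.08 in saline hearts. All 2MT arrays were above the saline arrays, which had an SD of 0.01, and the difference was 0.11 ± 0.05 (SE, adjusted p = 0.30). Lamp1, its close relative, had 10.02, 10.07 and 10.05 in 2MT hearts, against 10.07, 10.03 and 10.06 in saline hearts. Its difference of -0.01 had a 95% interval of -0.10 to 0.09. Mcoln1, the calcium channel whose activity leads to release of TFEB from the cytoplasm, had 6.71, 6.85 and 6.83 in 2MT hearts, against 6.86, 6.60 and 6.69 in saline hearts, with overlapping groups (difference 0.08, adjusted p = 0.67).

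In the V1 part of the pump 1 of 9 tested subunits passed (11.1%, against 4.63% of all genes tested). Atp6v1g2 encodes the G2 form of the G subunit, a stalk protein whose G2 form is known mainly from neurons. On its probe set, 10444756, it had 6.12, 6.08 and 5.92 in 2MT hearts, against 5.64, 5.60 and 5.82 in saline hearts. The groups did not overlap, with saline 3 nearest to 2MT 3. It rose by 0.35 ± 0.09 (SE, n = 3 each, adjusted p = 0.039), a 1.28-fold higher level with a 95% interval of 1.12 to 1.46. The call was lost without 2MT 1 (0.14), 2MT 2 (0.14), 2MT 3 (0.053), saline 1 (0.12) or saline 2 (0.13), with no dim filter (0.065), with every probe set tested on its own (0.073) and without the variance trend (0.064). Its log2 difference ran from 0.28 to 0.42 over 16 alternatives.

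The widespread form of the same subunit, Atp6v1g1, had means of 7.94 ± 0.05 in 2MT hearts and 7.98 ± 0.07 in saline hearts (SD, n = 3 each), a difference of -0.04 with a 95% interval of -0.17 to 0.09. Its other probe set differed by -0.08. Within arrays, the log2 signal of Atp6v1g2 minus that of Atp6v1g1 differed by 0.40 ± 0.08 between 2MT and saline (SE, n = 3 each, exact permutation p = 0.1, 0.175 adjusted over 7 pairs). A neuron and Schwann cell list, chosen after the values were seen, had 3 of 10 measured markers above the dim floor and 0 that passed (1 at an unadjusted p under 0.05). Its summed linear signal was 181 to 196 on 2MT arrays and 185 to 204 on saline arrays, and its part in the rise of Atp6v1g2 was not tested. The span of Atp6v1g2 overlaps Nfkbil1 in the RefSeq table, and Nfkbil1 stood at 4.83 ± 0.07 in 2MT hearts and 4.90 ± 0.10 in saline hearts (SD, n = 3 each, adjusted p = 0.77).

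The other V1 subunits did not pass. Atp6v1f, part of the central rotor shaft, had 7.40, 7.45 and 7.39 in 2MT hearts, against 7.59, 7.66 and 7.57 in saline hearts. The groups were apart, and the difference of -0.19 ± 0.06 (SE) had an adjusted p of 0.091 in limma. The second probe set of Atp6v1f ran the same way, at 6.76 in 2MT hearts and 6.92 in saline hearts (difference -0.16). Atp6v1h, a regulatory subunit that couples V1 to V0, had 5.45, 5.29 and 5.30 in 2MT hearts, against 5.48, 5.57 and 5.47 in saline hearts (difference -0.16, adjusted p = 0.37). Its groups lay next to each other without overlap. Atp6v1a, the subunit that splits ATP and whose promoter is printed above, had 5.98, 5.93 and 5.91 in 2MT hearts, against 5.98, 6.13 and 6.07 in saline hearts (difference -0.12, adjusted p = 0.46). Differences of the remaining subunits ran from -0.03 for Atp6v1c1 and 0.02 for Atp6v1d, over 0.04 for Atp6v1e1, to 0.08 for Atp6v1b2, the B subunit that shares the catalytic ring with A.

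Of 6 tested V0 subunits 0 passed in limma, against 4.63% of all genes tested, and 2 had an unadjusted p under 0.05, against 17.8%. The median difference of the 6 was -0.08, and 5 of them stood lower in 2MT, as did 5070 of all 10547 genes. Counts over 6 genes are too small to set apart from these shares. Atp6v0e2, a small membrane subunit, had 5.16, 5.05 and 5.08 in 2MT hearts, against 5.21, 5.39 and 5.42 in saline hearts. Its groups did not overlap, with saline 1 just above 2MT 1, and the difference was -0.24 ± 0.09 (SE, adjusted p = 0.18). The related Atp6v0e differed by -0.01, and Atp6v0e2 minus Atp6v0e within arrays differed by -0.23 ± 0.14 between 2MT and saline (SE, n = 3 each, exact permutation p = 0.2, also 0.2 adjusted over 7 pairs). For Lamp2 minus Lamp1, Atp6v0a2 minus Atp6v0a1 and Mitf minus Tfeb the values were 0.11 ± 0.03, 0.17 ± 0.10 and 0.12 ± 0.09, with exact p values of 0.1, 0.2 and 0.2. Atp6v0d1, which links the V0 ring to the rotor shaft, had 6.47, 6.47 and 6.48 in 2MT hearts, against 6.68, 6.63 and 6.58 in saline hearts (difference -0.16, adjusted p = 0.25). These 2MT values lay within an SD of 0.01 and below all saline values. Atp6v0b, a proton-carrying ring subunit, had 7.59, 7.57 and 7.64 in 2MT hearts, against 7.78, 7.60 and 7.73 in saline hearts, with overlap (difference -0.10, adjusted p = 0.44). The a subunits, which steer the pump to its membranes, differed by -0.06 for Atp6v0a1 and 0.11 for Atp6v0a2, and the second probe set of Atp6v0a2 by 0.04. Atp6v0c, the main ring subunit, had no probe set under its symbol in the annotation used here.

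**Figure D2:**
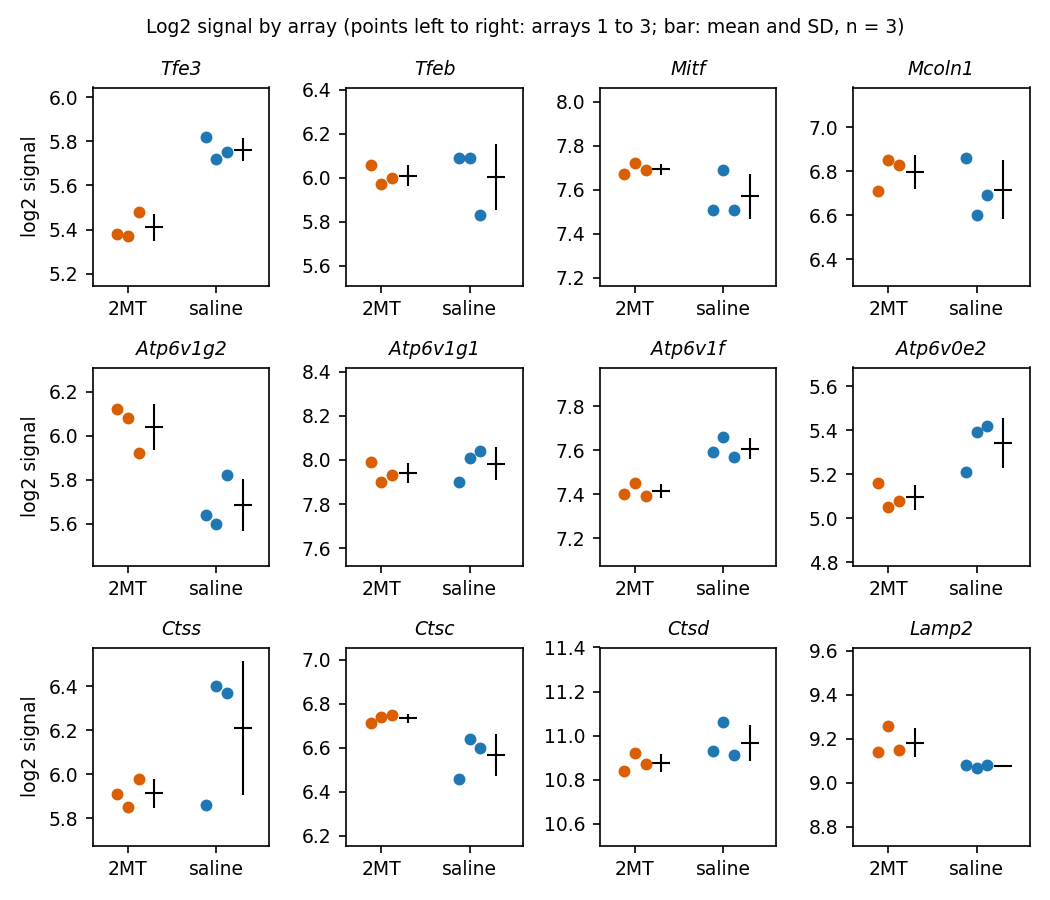
Log2 signal (vertical axes, each spanning 0.9) of 12 members on the 3 arrays of 2MT (left in each panel) and saline (right), with the mean and SD beside the points. Tfe3 lies at 5.37 to 5.48 in 2MT and 5.72 to 5.82 in saline, Atp6v1g2 at 5.92 to 6.12 in 2MT and 5.60 to 5.82 in saline, and in Ctss 2 of the 3 saline arrays stand above the rest.

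Of 11 tested cathepsins 0 passed in limma, against 4.63% of all genes tested, and 2 had an unadjusted p under 0.05, against 17.8%. The median over the 11 was -0.08. Cathepsins D, B and L, the best known of them, each differed by 0.09 or less. Ctsd, the aspartic protease of lysosomes, had 10.84, 10.92 and 10.87 in 2MT hearts, against 10.93, 11.06 and 10.91 in saline hearts, a difference of -0.09 with a 95% interval of -0.19 to 0.01 (adjusted p = 0.36). Ctsb, a cysteine protease, had 9.37, 9.37 and 9.31 in 2MT hearts, against 9.17, 9.31 and 9.42 in saline hearts (difference 0.05, interval -0.08 to 0.18). The saline arrays of Ctsb spread across the whole 2MT range. Ctsl, another cysteine protease, had 8.32, 8.46 and 8.45 in 2MT hearts, against 8.55, 8.43 and 8.49 in saline hearts (difference -0.08, interval -0.21 to 0.05).

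Ctss, a protease of antigen-presenting cells that trims the invariant chain of MHC class II, differed most among the cathepsins. It had 5.91, 5.85 and 5.98 in 2MT hearts, against 5.86, 6.40 and 6.37 in saline hearts. Saline 1 lay inside the 2MT range and the other saline arrays well above it, and the difference was -0.30 ± 0.12 (SE, adjusted p = 0.21). Without saline 1 the difference was -0.47 with an adjusted p of 0.01, and in the other 16 alternatives it did not pass. Of 16 tested macrophage markers 3 fell and 0 rose (18.8%, against 4.63% of all genes tested). Their differences ran from -0.53 to 0.22 with a median of -0.01, and 8 stood higher in 2MT and 8 lower. Those that fell were the Fc receptor Fcgr3 (by 0.53 ± 0.09), the phagocytic receptor Mertk (0.41 ± 0.10) and the hyaluronan receptor Lyve1 (0.34 ± 0.09). These errors are SE, and the limma adjusted p values were 0.0044, 0.032 and 0.035 in that order. Mertk and Lyve1 passed in 8 of 16 and 9 of 17 alternatives. The summed linear signal of the 19 measured macrophage markers, of which 3 were dim, was 1455 to 1588 on 2MT arrays and 1527 to 1771 on saline arrays. On saline 1, where Ctss was low, it was 1566, against 1527 and 1771 on saline 2 and saline 3. The part of macrophages in the Ctss difference was not tested.

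Ctsc, which activates the serine proteases of immune granules, had 6.71, 6.74 and 6.75 in 2MT hearts, against 6.46, 6.64 and 6.60 in saline hearts. All 2MT arrays were higher, and the difference was 0.17 ± 0.07 (SE, adjusted p = 0.24). The cathepsins left were Ctsz (-0.11), Ctsh (-0.10), Ctsf (-0.09), Ctsa (0.01), Ctsk (0.01) and Ctso (0.06), with adjusted p values between 0.52 and 0.98. Ctsa protects partner enzymes in the lysosome, and Ctsk is the collagen-cleaving protease of osteoclasts. Ctsk stood near the dim floor, at 4.44 ± 0.23 in 2MT hearts and 4.42 ± 0.08 in saline hearts (SD, n = 3 each).

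The other 12 member genes were dim, on a signal that carries no detection call. They include forms known from other tissues: the placental cathepsins Ctsj, Ctsq and Ctsr, at 2.48, 1.87 and 3.74 in 2MT hearts and 2.68, 1.81 and 3.82 in saline hearts, and Ctsg of neutrophil granules, at 2.40 in 2MT hearts and 2.32 in saline hearts. Ctsw of cytotoxic lymphocytes was at 3.52 in 2MT hearts and 3.37 in saline hearts, and Ctse of the stomach and immune cells at 3.46 in 2MT hearts and 3.60 in saline hearts. The kidney forms Atp6v0a4, Atp6v1b1 and Atp6v1g3 were at 3.43, 2.87 and 2.32 in 2MT hearts and 3.41, 2.95 and 2.02 in saline hearts. Atp6v0d2, an osteoclast form, was at 2.12 ± 0.05 in 2MT hearts and 2.50 ± 0.14 in saline hearts (SD, n = 3 each). Atp6v1c2 and the testis form Atp6v1e2 were at 3.05 and 4.02 in 2MT hearts and 3.11 and 3.84 in saline hearts. Most markers of some of these sources were dim as well: 11 of 12 for T and NK cells, 6 of 7 for kidney epithelium and both measured ones for trophoblast. Of 19 macrophage markers 3 were dim, and stomach and testis had no marker list. With no dim filter 0 of the 12 members passed in limma, against 0.234% of all dim genes, and Atp6v0d2 and Atp6v1g3 had unadjusted p values of 0.0078 and 0.025. Ctsm lay only on probe sets shared with another symbol and is given no value.

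Of 6 tested members with the 8-letter motif in their promoter window 0 were called, against 4.63% of all genes tested. Among so few genes a count of 0 lies near that share. Of the 19 tested members with a window and no such letters 2 were called. Differences of the 6 ran from -0.16 for Atp6v0d1 to 0.08 for Mcoln1, with a median of -0.05, beside -0.01 for the 19.

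The wider lysosomal pathway gave the same small counts, as the plot of gene lists shows. Of 32 tested lysosomal hydrolases outside the rule 1 fell and 0 rose (3.12%, against 4.63% of all genes tested), with a median of -0.01. It was Lipa, the acid lipase that frees cholesterol and fatty acids, with 7.11, 7.16 and 7.09 in 2MT hearts, against 7.50, 7.44 and 7.57 in saline hearts. All 2MT arrays were lower, it fell by 0.38 ± 0.06 (SE, n = 3 each, adjusted p = 0.003), and it passed in all 17 alternatives. Of 27 lysosomal membrane and transport genes, 20 sorting genes and 12 partners or assembly factors of the proton pump 0 passed in limma. At an unadjusted p under 0.05 there were 4, 1 and 0, against 17.8% of all genes tested. The list medians were -0.04, -0.02 and -0.06.

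Among 23 genes of the mTORC1 and Rag system, which holds TFEB and TFE3 in the cytoplasm, 1 rose and 0 fell. That is 4.35%, against 4.63% of all genes tested, and the median was 0.00. Rragd, a Rag GTPase that docks these factors on the lysosome, averaged 7.94 ± 0.07 in 2MT hearts and 7.62 ± 0.15 in saline hearts (SD, n = 3 each). The groups did not overlap, and it rose by 0.32 ± 0.08 (SE, n = 3 each, adjusted p = 0.026). Its call was lost without 2MT 1 (0.096), 2MT 3 (0.12), saline 1 (0.098) or saline 2 (0.052), with every probe set tested on its own (0.062) and without the variance trend (0.096). Of 15 measured cathepsin inhibitors 10 were dim, and of the 5 tested 1 fell and 0 rose (20%, against 4.63% of all genes tested). The one called was Serpina3n, a secreted serine protease inhibitor of the acute phase. It had 6.15, 6.66 and 6.29 in 2MT hearts, against 7.14, 7.21 and 6.78 in saline hearts, and fell by 0.68 ± 0.13 (SE, n = 3 each, adjusted p = 0.0069). It passed in all 17 alternatives, and the list's median was -0.06.

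**Figure D3:**
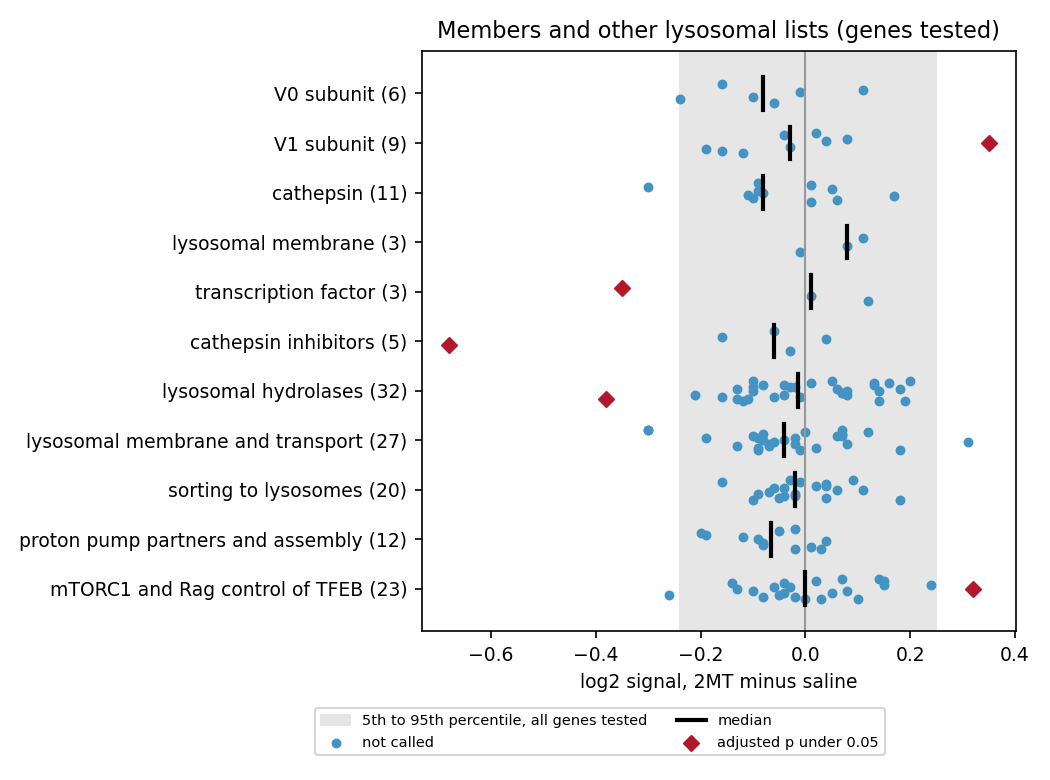
Difference in log2 signal, 2MT minus saline (horizontal axis), of each tested gene in the 5 role groups of members and in 6 other lysosomal lists, with the list median as a bar and called genes as diamonds. The grey band holds the 5th to 95th percentile of all genes tested, -0.24 to 0.25. The 5 called genes, Serpina3n, Lipa, Tfe3, Rragd and Atp6v1g2, lie outside it. So do some genes that were not called, among them Slc36a1 (0.31), Cd63 (-0.30) and Ctss (-0.30).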

How the data were processed

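The deposited values are 1 log2 signal per probe set and array. The log2 base was read from their range, 0.51 to 13.5, since no header states it. MAS5 is named in the submitters' processing notes, with no version or role, and any other normalization step is not given in the sources used here. Array medians lay between 4.32 and 4.37, and no further scaling was applied. Probe sets were named through the platform annotation, and 21698 of 21789 with 1 symbol matched the mouse gene table. Where several probe sets named a gene, the one brightest on average stood for it. The test was a two-sided limma fit (version 3.58.1, R 4.3.3; lmFit and eBayes with a variance trend) with treatment as its single factor and p-values adjusted by Benjamini-Hochberg across 10547 genes. Simulated data with known changes served as a test of the fit. Pairs of related genes were compared by exact two-sided permutation of arrays (scipy 1.17.1), and figures drawn with matplotlib 3.10.9. The pairs include the called members Tfe3 and Atp6v1g2, so their values are not separate support for those calls.

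The members and gene lists were chosen with earlier results of these data known. The text names every member. It gives array values for called members, for the 3 with the smallest p among V0 subunits, V1 subunits and cathepsins, and for Lamp1, Lamp2, Tfeb, Tfe3, Mitf, Mcoln1, Ctsd, Ctsb, Ctsl, Atp6v1a and Atp6v1h, and names called genes of the other lists. Alternatives were other normalizations, dim filters, an offset of 16 before log2, other uses of probe sets, other variance models, the replicate block, other thresholds and each array left out. Arrays carry no count depth, signal over background is unknown, and their number limits the precision. Coordinates are given for the RefSeq promoter stretches alone, in the build of that table, since no source names a build for the probe sets.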

Additional observations from a re-analysis of the deposited data

How the results depend on the processing

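The count of called members, 2 (1 higher and 1 lower), was 2 under quantile normalization, median centring, cyclic loess, the offset, averaging of a gene's probe sets, array weights and the replicate block. It was 1 (0 higher, 1 lower) with no dim filter, with every probe set tested on its own and without the variance trend. With the stricter dim filter, a mean of at least 6, it was 0 (0 higher, 0 lower), because neither called member is bright enough to be tested there. It was 3 (1 higher, 2 lower) at an adjusted p under 0.1, with Atp6v1f added, and 0 (0 and 0) at 0.01. Leaving out each array in turn gave 0 to 2 members (0 to 1 higher and 0 to 1 lower). Over all genes the count of 488 became 317 with every probe set on its own, 292 without the variance trend, 768 at 0.1, 219 at 0.01 and 262 to 648 with an array left out. The replicate block gave 586. The labels state no link between same-numbered arrays of the groups, and they were not taken as pairs. Their deviations from the group means correlated at 0.070, 0.040 and 0.022, against -0.083 to 0.040 for differently numbered arrays. These values do not settle whether the arrays were paired. With array weights the differences of Ctsk and Tfeb turned to -0.02 and -0.01. With an array left out, 9 members that did not pass turned in sign. Over all alternatives Ctsk ran from -0.12 to 0.09, Tfeb from -0.08 to 0.05, Atp6v0e from -0.11 to 0.05, Atp6v1c1 from -0.07 to 0.00, Atp6v1d from -0.02 to 0.05, Ctsa from -0.02 to 0.03, Ctsb from -0.02 to 0.11, Ctsf from -0.15 to 0.00 and Lamp1 from -0.03 to 0.01. Of 655 values of single genes under the alternatives 596 kept direction and side of the threshold and 40 lost the call. Another 1 gained it (Ctss without saline 1) and 18 turned in sign, none of these 18 of a called gene. The 655 include genes without a call in the main fit, which could not lose one. Among called genes, Atp6v1g2 passed in 8 of 16 alternatives, Tfe3 in 12 of 16, and Lipa and Serpina3n in all 17. The causes were not tested.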
